A study of Drosophila melanogaster with 4 samples.

Results

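The genes considered here are those of the apoptosis pathway and of the autophagy machinery of Drosophila, read in early pupae with reduced levels of the dopamine receptor Dop1R2. They were chosen by name: 16 apoptosis genes (the antagonists of inhibitor of apoptosis proteins, the inhibitor Diap1, caspases and their adaptor, Bcl-2 family members and the TNF ligand and receptor) and 23 autophagy genes (ref(2)P, Vps34, Tor and every gene whose symbol is Atg followed by a number). A probe set annotated to the gene alone was found for 34 of these 39 genes, of 10843 genes with such a probe set on the array. All 23 autophagy genes had one, and 11 of the 16 apoptosis genes. The other 5, rpr, hid, Diap1, Drice and Decay, include the central inhibitor and a main effector caspase, and were not analysed here.

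The study asked which transcripts change when Dop1R2 is knocked down at the onset of metamorphosis. RNA was taken from pools of 10 to 20 early (pale) pupae, whole animals from crosses kept at 29 °C, and hybridized to Affymetrix Drosophila genome arrays, with 2 arrays for Dop1R2 RNAi and 2 for controls, stated to be separate biological replicates. The Dop1R2 RNAi pupae carried UAS-dsDop1R2 and Act5C-Gal4, each in 1 copy (UAS-dsDop1R2/+;Act5C-Gal4/+), so that the hairpin was driven ubiquitously. The labels give the controls as w1118;Act5C-Gal4/+, with the driver and without the hairpin, whereas a figure legend of the study describes control siblings with the hairpin and a TM6B balancer but without the driver. Which of the study's hairpin lines was used for the arrays is not stated, and Dop1R2 itself has no probe set of its own, so the knockdown could not be checked on these arrays. Since whole animals were pooled, the tissue behind a signal is unknown, and fewer cells of a type cannot be told apart from less RNA per cell.

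Apoptosis in the fly is held back by Diap1, which binds caspases. The antagonists reaper, hid, grim and sickle remove this brake, upon which the initiator caspase Dronc assembles with the adaptor Dark and activates the effector caspases Drice and Dcp-1. Autophagy starts with the Atg1 kinase complex, which Tor kinase keeps inactive in fed cells, and goes on through the lipid kinase Vps34, the membrane-supplying proteins Atg9, Atg2 and Atg18, and a pair of ubiquitin-like conjugation systems that attach Atg8 to the growing membrane, where cargo receptors such as Ref(2)P dock. At metamorphosis both pathways take part in the removal of larval tissues such as salivary gland and midgut, under the control of the steroid hormone ecdysone.

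The values are MAS5 signals on a linear scale, scaled by the authors to the same trimmed mean of 100.02 on every array. The median signal of an array was 43.4 to 45.0. Correlations of log2 signals were taken over all 13966 probe sets left after removal of the array's control probe sets, dim ones included. They were 0.9445 within the Dop1R2 RNAi group, 0.9355 within the control group, and 0.9048 to 0.9350 for arrays of different groups. Probe sets that reached the 40th percentile of an array (29.4 to 31.0) on at least 2 of the 4 were tested with limma, 8749 in all, and p-values were adjusted over all of them by the Benjamini-Hochberg method, with a gene called at an adjusted p under 0.05. For 1 gene alone, an exact two-sided permutation p could not be smaller than 0.333 in this design, so the calls rest on limma, which borrows the spread of all probe sets. A gene with several probe sets is given by its brightest.

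Of the 26 genes that reached this level, 7 of the apoptosis and 19 of the autophagy genes, 1 was called: ref(2)P, higher in Dop1R2 RNAi pupae. Over all 8749 probe sets tested, 121 were called higher (1.38%) and 9 lower (0.103%). At an unadjusted p under 0.05, 4 autophagy genes (ref(2)P, Atg13, Atg4b and Atg9) and 1 apoptosis gene (Dronc) were higher and none was lower, beside 7.53% higher and 5.51% lower over all probe sets. Both Dop1R2 RNAi arrays lay above both control arrays for 9 autophagy genes and 1 apoptosis gene (38.5% of the 26), and below them for 3 autophagy genes (11.5%), while over all probe sets the shares were 21.1% and 24.0%. Since Atg18b reached the level for testing only on the Dop1R2 RNAi arrays and Atg12 only on the control arrays, those pairs of groups had to lie apart. Among the 23 genes at that level on all 4 arrays, 9 lay above and 2 below, beside 20.5% and 24.4% of the 7203 probe sets that reach it on all arrays. The median log2 fold change (Dop1R2 RNAi over control) of the autophagy genes was 0.13 and that of the apoptosis genes 0.20, with -0.04 over all probe sets. The apoptosis median rests on few genes and moved with the arrays, to 0.07 without Dop1R2 RNAi replicate 2 and to 0.32 without Dop1R2 RNAi replicate 1. Measures of RNA quality also differed between groups: 3'/5' signal ratios of the control probes were lower on both Dop1R2 RNAi arrays for eIF-4A (3.98 and 2.82 against 4.59 and 4.24) and GAPDH (3.88 and 3.90 against 4.61 and 3.97), and equal for actin (2.07 and 1.61 in both groups), and their part in these counts was not tested.

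**Figure D1:**
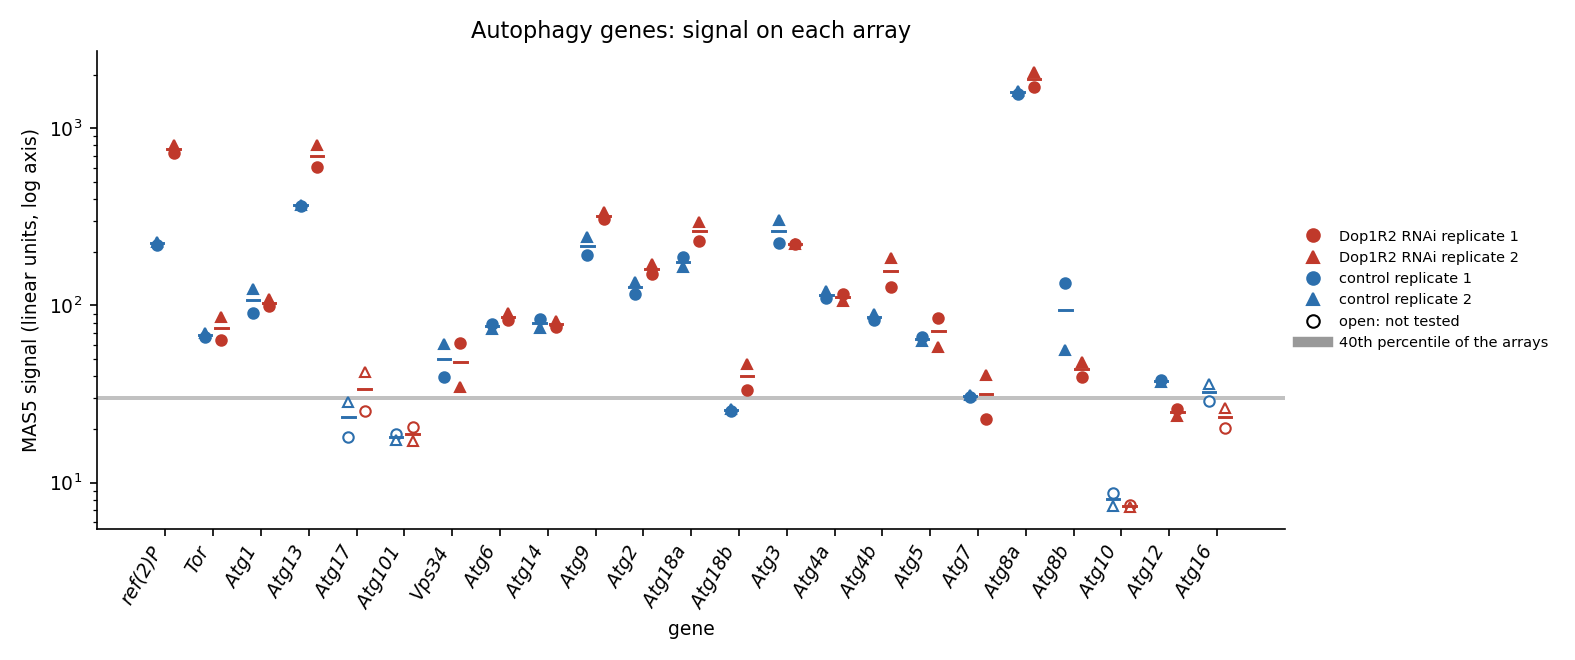
MAS5 signal of the 23 autophagy genes on each of the 4 arrays (log axis), with Dop1R2 RNAi in red and controls in blue, circles for replicate 1, triangles for replicate 2, short lines for the mean of a group (n = 2), and open symbols for the 4 genes not tested. The grey line spans the 40th percentiles of the arrays, and ref(2)P, at 725 and 805 against 218 and 229, has the widest gap between groups among the genes above it.

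The cargo receptor came first among the autophagy genes by size of change. Ref(2)P, the fly sequestosome, binds ubiquitinated proteins and Atg8a and is itself degraded in autophagosomes. Its gene ref(2)P (chromosome arm 2L) had signals of 725 and 805 in Dop1R2 RNAi pupae and of 218 and 229 in controls. All 4 values lay close to the mean of their group and the groups were far apart. The mean was 765 ± 57.0 (SD, n = 2) against 224 ± 7.61 (SD, n = 2), a 3.42-fold difference (log2 fold change 1.77, standard error 0.21, 95% interval 1.27 to 2.27, adjusted p = 0.0115 from limma). By log2 fold change it ranked 148 from the top of the 8749 probe sets tested, so that 98.3% had a lower value. The fold change hardly moved when an array was left out (1.70 to 1.85), but the call was lost without control replicate 1 (adjusted p = 0.167) or control replicate 2 (adjusted p = 0.116), fits in which 34 and 27 probe sets in all were still called higher. A further probe set that is annotated to ref(2)P and IA-2 together had signals of 148 and 111 in Dop1R2 RNAi and 79.1 and 97.1 in control pupae, a smaller separation in the same direction (log2 fold change 0.55, adjusted p = 0.428 from limma), and what share of it stems from ref(2)P is unknown.

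The Atg1 kinase complex opens the pathway. Atg13, the subunit that links the Atg1 kinase to its nutrient signal, had signals of 602 and 799 in Dop1R2 RNAi and of 363 and 371 in control pupae. The lower Dop1R2 RNAi value was still well above both controls, with more spread between the Dop1R2 RNAi arrays than between the controls. The log2 fold change was 0.92 (1.89-fold, standard error 0.23, 95% interval 0.37 to 1.46), but it did not pass over all probe sets (adjusted p = 0.166 from limma). Without Dop1R2 RNAi replicate 1 it was 1.12, and without Dop1R2 RNAi replicate 2 it was 0.71. A dimmer second probe set of Atg13 gave 69.3 and 144 against 44.8 and 71.0, a similar log2 fold change of 0.83 with groups that overlap. Atg1, the kinase itself, gave 99.4 and 109 in Dop1R2 RNAi and 90.7 and 124 in control pupae, so that the Dop1R2 RNAi values fell between the controls (log2 fold change -0.03, 95% interval -0.62 to 0.57). The scaffold subunit Atg17 (25.3 and 42.2 against 18.1 and 28.7) and Atg101, a partner of Atg13 (20.7 and 17.1 against 18.8 and 17.3), were too dim to be tested. A second probe set of Atg101 gave 6.90 and 8.18 against 4.38 and 5.71, under the 20th percentile on all 4 arrays. No subunit of this complex was called.

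Tor, the growth kinase that restrains the Atg1 complex, had signals of 63.9 and 85.8 in Dop1R2 RNAi and of 66.8 and 70.3 in control pupae, which overlap (log2 fold change 0.11, 95% interval -0.49 to 0.72). The lipid kinase complex makes the phosphoinositide mark of the early autophagosome. Vps34, its catalytic subunit (annotated as Pi3K59F), gave 61.3 and 34.7 against 39.5 and 60.8 (log2 fold change -0.09, 95% interval -0.996 to 0.82). The spread within each group was far wider than the gap between the means (48.0 and 50.2). Atg6, the beclin of the fly, gave 82.4 and 90.7 against 78.5 and 73.9, groups that do not overlap but lie close (log2 fold change 0.18, 95% interval -0.36 to 0.72). Atg14, which directs the complex to autophagosomes, gave 75.4 and 81.8 against 83.7 and 74.9 (log2 fold change -0.01, 95% interval -0.56 to 0.53). No member of this complex was called.

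The 4 genes that serve membrane supply all had Dop1R2 RNAi values above both controls, and none was called. Atg9, the membrane-spanning protein of the seed vesicles, gave 306 and 336 in Dop1R2 RNAi and 192 and 242 in control pupae (log2 fold change 0.57, 95% interval 0.02 to 1.12, adjusted p = 0.367 from limma). Atg2, a lipid transfer protein, gave 150 and 170 against 117 and 136 (log2 fold change 0.34, 95% interval -0.21 to 0.89). Atg18a, which binds the lipid made by Vps34, gave 230 and 296 against 188 and 165 (log2 fold change 0.57, 95% interval 0.00 to 1.14, which just includes 0). Its relative Atg18b was dim, at 33.5 and 46.6 against 25.6 and 25.9 (log2 fold change 0.62, 95% interval -0.27 to 1.51), and as the control values were below the level for testing, the direction of that gap was set by the filter. The log2 fold changes of the other 3 lay between 0.34 and 0.57, each with an interval that allows a difference close to 0.

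**Figure D2:**
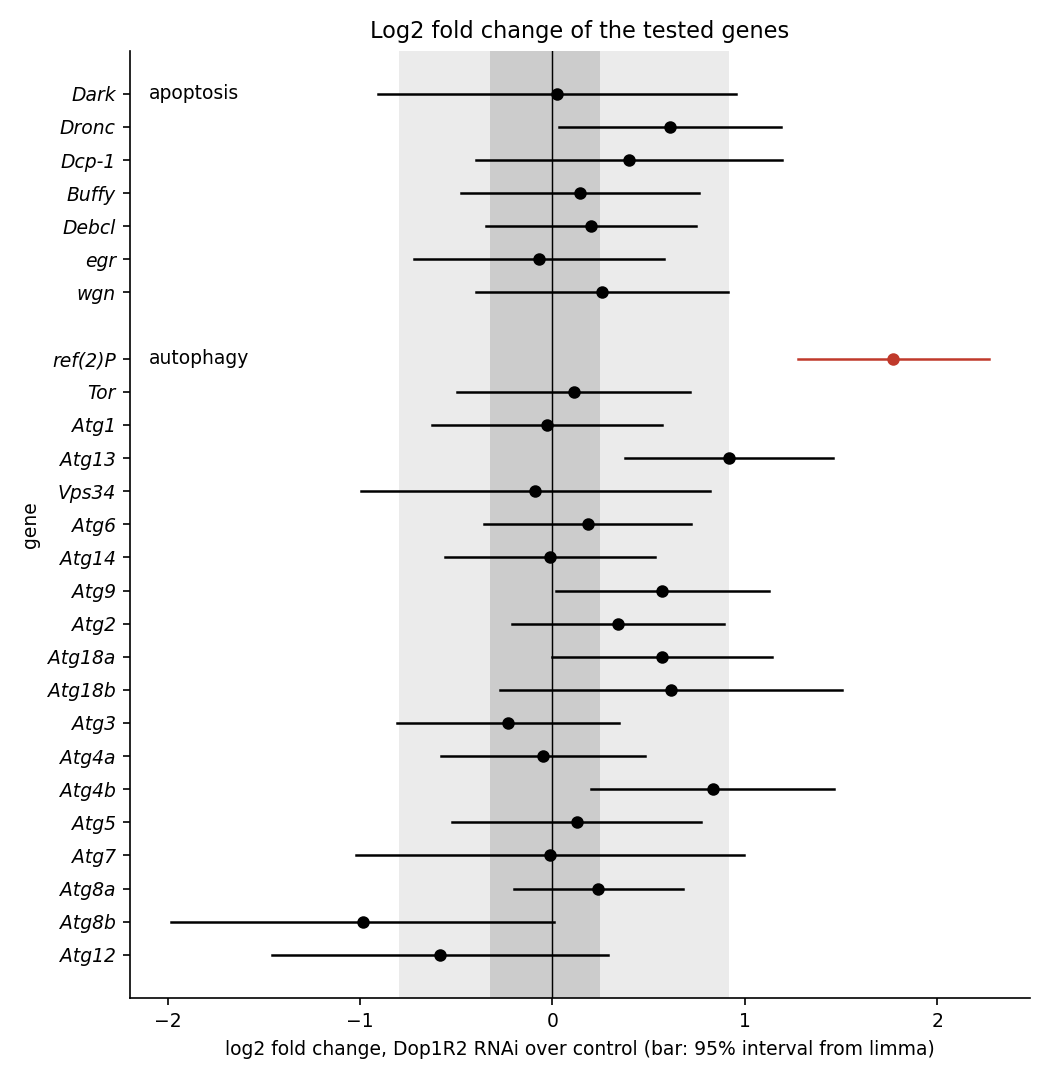
Log2 fold change (Dop1R2 RNAi over control, 2 arrays each) of the 26 tested genes with its 95% interval from limma, in red where the adjusted p was under 0.05. The dark and light bands hold the middle 50% (-0.32 to 0.25) and 90% (-0.80 to 0.92) of all 8749 probe sets, and ref(2)P (1.77) lies above both, Atg13 (0.92) at the upper edge and Atg8b (-0.99) below them.

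The 8 tested genes of the conjugation systems did not share a direction, with 3 fold changes above 0 and 5 below. Atg8a, the ubiquitin-like protein that is attached to autophagosome membranes, gave 1715 and 2062 in Dop1R2 RNAi and 1566 and 1623 in control pupae. The groups do not overlap, but the difference was small (1.18-fold, log2 fold change 0.24, 95% interval -0.20 to 0.68, adjusted p = 0.615 from limma), and the interval leaves out a rise of 2-fold. Atg4b, of the Atg4 family of proteases that prepare Atg8 and later release it from membranes, gave 127 and 186 against 82.8 and 89.8. Its log2 fold change of 0.83 (1.78-fold, 95% interval 0.20 to 1.46) was not called (adjusted p = 0.267 from limma). This value was 1.11 without Dop1R2 RNAi replicate 1 and 0.55 without Dop1R2 RNAi replicate 2. Atg4a, the other Atg4 gene, gave 116 and 106 against 110 and 120, with no gap between groups (log2 fold change -0.05, 95% interval -0.58 to 0.48).

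Atg8b, a second Atg8 gene that in flies is known mainly from the male germline, stood at the other end. Its signals were 39.5 and 48.1 in Dop1R2 RNAi and 134 and 55.8 in control pupae. Control replicate 1 was far above the other 3 arrays, which lie close to each other. The log2 fold change was -0.99 (95% interval -1.98 to 0.01, adjusted p = 0.386 from limma), and it was -0.36 without control replicate 1 and -1.62 without control replicate 2. Markers of the male germline, a list of 14 genes drawn up after the values of Atg8b had been seen, were read beside it: 11 have a probe set, 5 of them under the level for testing on every array, and their summed signal was 812 and 907 in Dop1R2 RNAi and 1363 and 1002 in control pupae, highest on control replicate 1 as for Atg8b. The sperm tail gene dj gave 211 and 274 against 456 and 272, and ocn, a gene expressed in testis, gave 121 and 206 against 339 and 191. Not all markers followed this order: bol, a meiosis gene, was highest on control replicate 2 (339 and 242 against 391 and 429), and the dim signals of mia (28.5 and 37.6 against 27.7 and 20.3) and tomb (13.2 and 25.7 against 4.45 and 5.45) were higher on both Dop1R2 RNAi arrays. Of the 4 tested markers none was called, and the part of the male germline in the Atg8b signal was not tested.

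None of the enzymes and partners of the conjugation reactions was called. Atg7, the activating enzyme shared by both systems, gave 23.0 and 40.4 against 30.3 and 31.2 (log2 fold change -0.01), at a level where the 95% interval still runs from -1.02 to 1.00. Atg3, which passes Atg8 to its lipid, gave 223 and 223 against 225 and 304, groups that do not overlap only because control replicate 1 lay just above (log2 fold change -0.23, 95% interval -0.81 to 0.35). In the conjugate that assists this step, Atg5 gave 85.4 and 58.6 against 66.6 and 63.2 (log2 fold change 0.13, 95% interval -0.52 to 0.77). Atg12, its ubiquitin-like partner, gave 26.2 and 23.7 against 37.9 and 36.9 (log2 fold change -0.59, 95% interval -1.46 to 0.29), and since only the control arrays reached the level for testing, the filter set the direction. Atg16, the third component, was dim, with 20.3 and 26.5 against 29.1 and 35.9 for its brightest probe set, which was not tested, and its other 2 probe sets gave overlapping groups. Atg10, the enzyme for Atg12, was under the 20th percentile on all 4 arrays in its own probe set, while a brighter one annotated to Atg10 and CG12822 together gave 93.3 and 128 against 79.0 and 102, which overlap. The low signals of Atg12, Atg16 and Atg10 leave this conjugate poorly measured here.

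**Figure D3:**
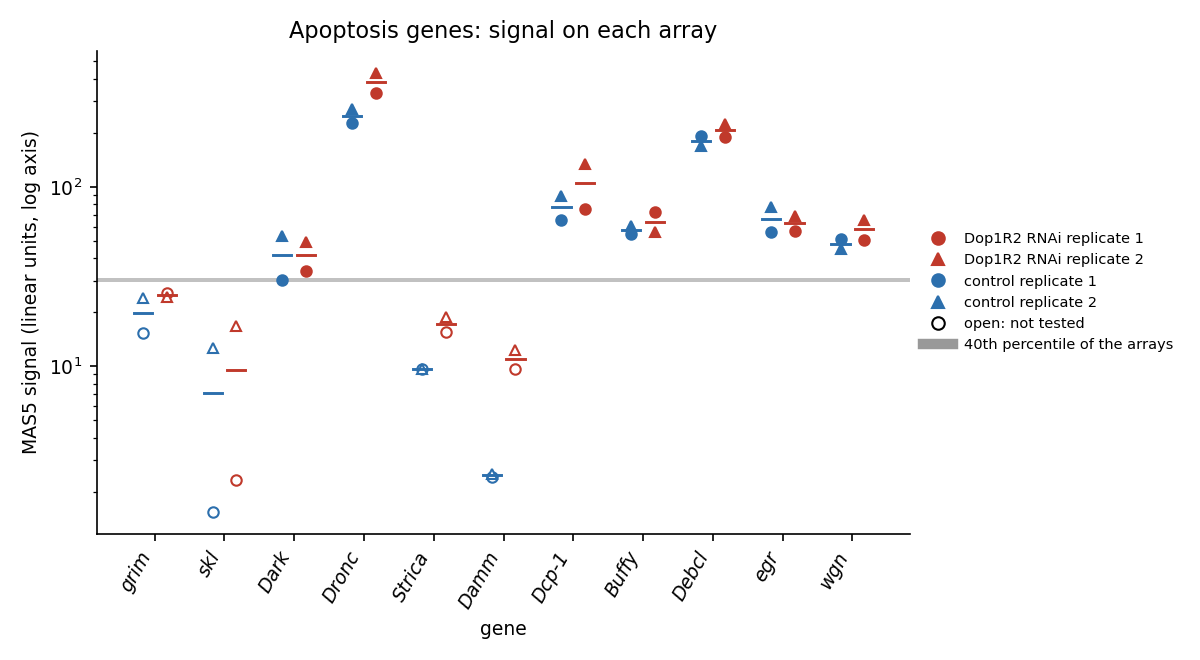
MAS5 signal of the 11 apoptosis genes with a probe set of their own on each of the 4 arrays (log axis), with Dop1R2 RNAi in red and controls in blue, circles for replicate 1, triangles for replicate 2, short lines for the mean of a group (n = 2), and open symbols for the 4 genes not tested. Dronc is the only tested gene with both Dop1R2 RNAi values (332 and 432) above both control values (226 and 272).

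Among the apoptosis genes, limma called 0 of 7 in either direction, beside 1.38% of all probe sets called higher and 0.103% lower, and only Dronc had an unadjusted p under 0.05. The test named in the study's methods called no probe set on the arrays after the same adjustment, so it says nothing about these genes. The antagonists at the top of the pathway gave little signal. The signals of grim were 25.6 and 24.3 in Dop1R2 RNAi and 15.4 and 24.1 in control pupae, under the level for testing on all arrays. For skl (sickle) they were 2.32 and 16.6 against 1.54 and 12.7, each replicate 1 being under the 20th percentile of its array. Both genes lie beside rpr on chromosome arm 3L, and rpr and hid themselves have no probe set of their own, so the step that starts developmental cell death was measured here only through these dim signals.

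Dronc, the initiator caspase, had signals of 332 and 432 in Dop1R2 RNAi and of 226 and 272 in control pupae. The groups do not overlap, and the gap between the nearest values was somewhat wider than that between the controls. The means were 382 ± 71.0 (SD, n = 2) and 249 ± 32.4 (SD, n = 2), 1.53-fold apart (log2 fold change 0.61, standard error 0.24, 95% interval 0.03 to 1.19), and the difference did not pass over all probe sets (adjusted p = 0.363 from limma). Dark, the adaptor that assembles Dronc into its active complex, gave 34.0 and 49.2 against 30.3 and 53.4, with the Dop1R2 RNAi values inside the range of the controls (log2 fold change 0.02, 95% interval -0.91 to 0.96). The partners of this complex thus gave different fold changes, though the difference between them was not tested.

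Dcp-1 is an effector caspase, which cleaves cell proteins once Dronc has activated it. It gave 75.3 and 133 in Dop1R2 RNAi and 65.0 and 89.3 in control pupae, which overlap, and the log2 fold change of 0.40 rests on Dop1R2 RNAi replicate 2 (-0.02 without it). Strica, a long-prodomain caspase, gave 15.4 and 18.9 against 9.70 and 9.65, the control values being under the 20th percentile of their arrays. Damm, a relative of Strica, gave 9.68 and 12.3 against 2.41 and 2.52 and was under that percentile on 3 of 4 arrays. Neither was tested, and at such low signals the ratio of the groups has little meaning: with signals raised to the 20th percentile of the array, the log2 fold change of Damm was 0.07.

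The Bcl-2 relatives were nearly level. Debcl, which promotes cell death, gave 190 and 225 against 192 and 169 (log2 fold change 0.20, 95% interval -0.35 to 0.75), and Buffy, which mostly opposes it, gave 72.0 and 55.7 against 54.7 and 60.3 (log2 fold change 0.14, 95% interval -0.48 to 0.76). Of the TNF branch, which signals through the kinase JNK, the ligand gene egr (eiger) gave 56.7 and 69.0 against 56.1 and 76.7 (log2 fold change -0.07, 95% interval -0.72 to 0.58). The receptor gene wgn (wengen) gave 50.5 and 65.5 against 51.3 and 45.0 (log2 fold change 0.26, 95% interval -0.40 to 0.91). In all 4 genes the groups overlap, and the intervals leave out a difference of 2-fold in either direction.

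How much these arrays could have shown differs between genes. The smallest difference called anywhere on the arrays was 2.39-fold (1.26 on the log2 scale), and the standard errors of the 26 genes ranged from 0.19 to 0.43. Of the 25 genes not called, the 95% interval lay within 2-fold of no change for 15 (5 of 7 apoptosis and 10 of 18 autophagy genes), and it included 0 for 21. For the remaining 10 the interval reached past 2-fold in at least 1 direction. The Dop1R2 RNAi arrays were also not alike over these genes: replicate 2 was above replicate 1 for 20 of the 26, beside 54.9% of all probe sets, and among the controls it was so for 18 of 26, beside 55.5%.

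**Figure D4:**
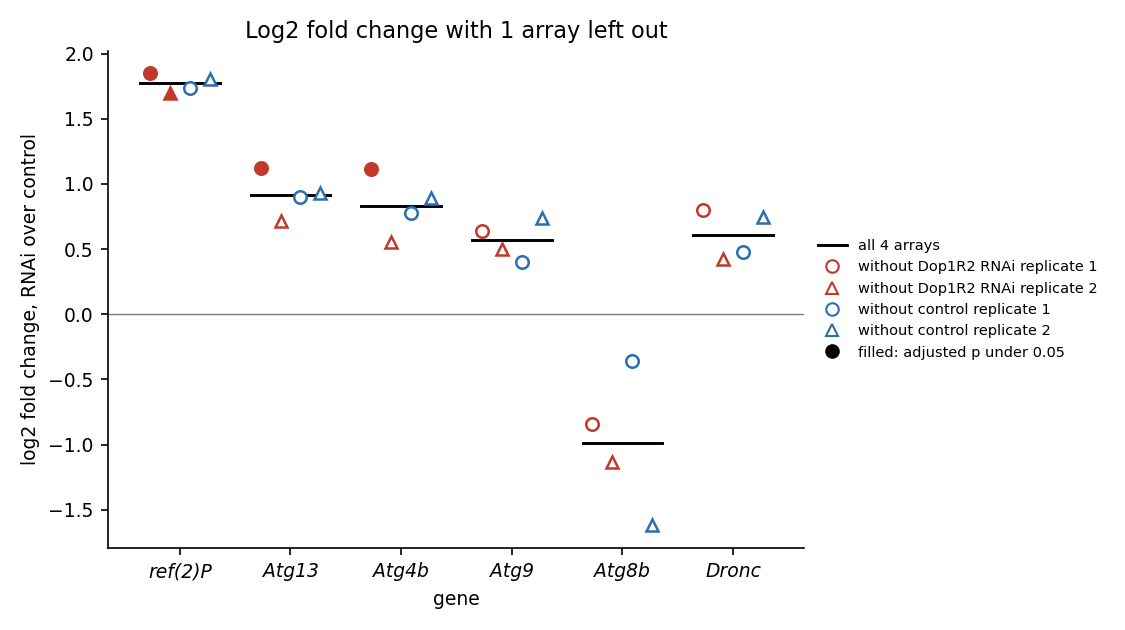
Log2 fold change (Dop1R2 RNAi over control) of 6 genes with all 4 arrays (black line) and with each array left out (symbols), filled where the adjusted p from limma was under 0.05. The value of ref(2)P stays between 1.70 and 1.85, whereas that of Atg8b runs from -1.62 to -0.36 depending on which control array is left out.

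The wider pathways around these genes were followed in 6 lists with 84 named genes, of which 64 have a probe set of their own and 54 were tested. None of the 54 was called in either direction by limma, beside 1.38% of all probe sets called higher and 0.103% lower. At an unadjusted p under 0.05, 6 were higher and 1 was lower, beside 7.53% and 5.51% of all probe sets. Among the 6 was ftz-f1, which reached the level for testing only on the Dop1R2 RNAi arrays. So did a gene each of the autophagy machinery and TOR lists, and for all of them the filter set the direction. The list medians of the log2 fold change, with these genes included, ran from 0.11 to 0.32, beside -0.04 over all probe sets. Further apoptosis genes (12 tested, median 0.12) included Tab2, an adaptor of JNK signalling, at 156 and 205 against 98.5 and 98.4 (log2 fold change 0.86, adjusted p = 0.223 from limma). In p53, the stress-induced transcription factor, the groups overlap and the log2 fold change of 0.48 turned to -0.17 without control replicate 1.

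Of the 5 tested genes of engulfment and corpse clearance (median 0.32), Ced-6, the adaptor of the engulfment receptor Draper, had signals of 264 and 308 in Dop1R2 RNAi and of 115 and 153 in control pupae. The groups were well apart (2.15-fold, log2 fold change 1.10, 95% interval 0.51 to 1.69), but the difference did not pass (adjusted p = 0.126 from limma) except without Dop1R2 RNAi replicate 1 (adjusted p = 0.0174). The receptor gene drpr gave 722 and 822 against 519 and 606 (log2 fold change 0.46, adjusted p = 0.412 from limma). Haemocytes are among the cells that engulf, and of 6 of their markers 4 were tested and none was called. Their summed signal was 388 to 396 in Dop1R2 RNAi and 517 to 602 in control pupae, lower where drpr and Ced-6 were higher, and it was carried mainly by Pxn (peroxidasin), at 188 and 170 against 360 and 380 (adjusted p = 0.0926 from limma). The other markers did not share a direction: NimC1 and PPO2 were higher on both Dop1R2 RNAi arrays than on either control array, PPO1, too dim to be tested, was slightly lower on both, and Hml and srp overlapped. The part of haemocyte number in these values was not tested.

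Among the 9 further genes of the autophagy machinery (median 0.22), cnc, the transcription factor of the oxidative stress response, gave 162 and 184 in Dop1R2 RNAi and 91.7 and 89.3 in control pupae (log2 fold change 0.93, 95% interval 0.40 to 1.46, adjusted p = 0.151 from limma). This is the brightest of the 4 probe sets of cnc, and the others are not given here. In the fly, ref(2)P is known as a target gene of cnc, a link that was not tested in these data. Rubicon, an inhibitor of the lipid kinase complex in mammals, gave 109 and 161 against 73.9 and 69.4 (log2 fold change 0.89, adjusted p = 0.246 from limma), and it passed only without Dop1R2 RNAi replicate 1 (adjusted p = 0.0374). In both genes the groups do not overlap.

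The 13 genes of TOR and AMPK signalling (median 0.21) included S6k, the kinase downstream of Tor, at 127 and 170 against 72.2 and 95.5 (log2 fold change 0.82, adjusted p = 0.28 from limma). The insulin receptor gene InR gave 48.6 and 81.0 against 26.7 and 43.5 (log2 fold change 0.88, adjusted p = 0.392 from limma). The 8 lysosomal genes were closer to 0 (median 0.11): the cholesterol transporter gene Npc1a gave 179 and 195 against 121 and 149 (log2 fold change 0.48), and spin, a lysosomal membrane transporter, 50.1 and 73.3 against 51.1 and 49.3 (log2 fold change 0.27). None of these 4 genes was called, and of the lysosomal genes none had an unadjusted p under 0.05.

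Ecdysone switches on the death of larval tissue through a cascade of transcription factors. Of the ecdysone regulators listed, not all of them transcription factors, 7 were tested (median 0.32). The signals of ftz-f1, the competence factor of the prepupal response, were 47.8 and 53.2 in Dop1R2 RNAi and 21.3 and 28.8 in control pupae (log2 fold change 1.03, adjusted p = 0.293 from limma), and its controls were below the level for testing, so that the filter set the direction. Eip93F, which is needed for both cell death and autophagy in larval salivary gland and gut, gave 105 and 131 against 55.6 and 109, which overlap (log2 fold change 0.59, adjusted p = 0.51 from limma). This value depends on the control arrays, at 0.11 without control replicate 1 and 1.08 without control replicate 2. The 1 gene of the 6 lists that was lower at an unadjusted p under 0.05, named after its values were seen, was Eip78C, an ecdysone-induced nuclear receptor, at 314 and 259 against 374 and 485 (log2 fold change -0.58, adjusted p = 0.38 from limma).

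**Figure D5:**
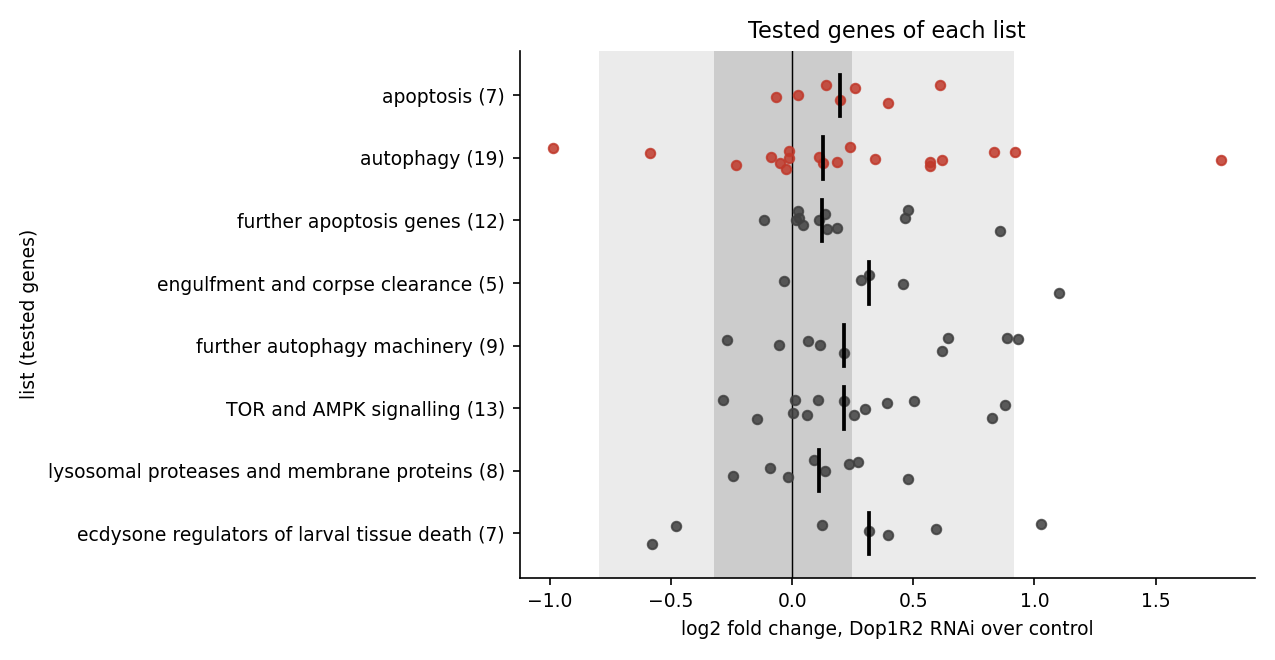
Log2 fold change (Dop1R2 RNAi over control) of every tested gene, by list, with the number tested in brackets and the median of each list as a black bar, over bands that hold the middle 50% and 90% of all 8749 probe sets. The medians lie between 0.11 and 0.32 in all 8 lists, and ref(2)P is the only point above 1.5.

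The markers chosen for larval salivary gland and gut were mostly dim, which does not show how much RNA of these tissues was present. Of 6 salivary gland glue genes, 5 were under the level for testing on all 4 arrays, and their summed signal was 70.6 to 72.2 in Dop1R2 RNAi and 70.3 to 74.7 in control pupae. Of 5 larval gut markers 1 was tested and 3 were under that level on all arrays, with summed signals of 229.7 to 283 against 351 to 383. That sum was carried mainly by LManII, a mannosidase gene (240.1 and 196 against 296 and 348), and Jon25Bi, a protease gene, went the other way at dim signals (17.6 and 14.3 against 4.78 and 5.50). The fat body markers, 3 genes with strong signals, overlapped between groups (17752 to 18571 against 18128 to 18590), as did those of muscle (4 genes) and neurons (5 genes). No marker of these tissues was called, and their part in the values above was not tested beyond these sums.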

How the data were processed

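The deposited values are 1 intensity (MAS5 signal, linear scale) for each probe set, which the authors made with Microarray Suite (its version is not given in the sources used here), then compared in Genespring with a t-test. Detection calls were not used. Groups were taken from the sample labels. After 44 control probe sets had been left out of 14010, signals of the other 13966 were put on the log2 scale with nothing added, and those reaching the 40th percentile of an array on at least 2 of 4 were kept (8749, 62.6%). The groups were compared with limma 3.58.1 in R 4.3.3 (lmFit, eBayes with a trend, 2 residual and 4.95 prior degrees of freedom), with Benjamini-Hochberg adjustment over all kept probe sets and a threshold of 0.05. The script was tested on simulated data. Summaries and plots used Python 3.11.15 (matplotlib 3.10.9, scipy 1.17.1, pandas 2.3.3, numpy 2.4.6).

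Of the probe sets, 12442 are annotated with 1 gene symbol, 327 with several and 1197 with none. Genes were matched through probe sets with 1 symbol, updated through Release 6 plus ISO1 MT, which was also used for chromosome arms and neighbours. All members with such a probe set could be named, and of each further list up to 2 with the largest change. Members and lists were chosen with earlier results of these data known. The male germline markers and the median without ref(2)P were added later. Signals of different probe sets were not compared, and the number of arrays limits the precision. Where a p-value from limma is given, it sets the difference between groups against a spread between pools. That spread is estimated from the 2 pools of each group and, by borrowing, from all probe sets. The alternatives were quantile normalization, median centring, adding 32 to the signals, raising low signals to the 20th percentile, a filter at the 60th percentile, no filter, limma without a trend, the replicate number as a block, the t-test of the methods, the mean of a gene's probe sets, and leaving out each array.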

Additional observations from a re-analysis of the deposited data

How the results depend on the processing

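With 2 arrays in each group, counts of calls moved with the arrays used. Probe sets called higher numbered 121, and 75 without a filter, 0 with the t-test of the methods, and 27 to 357 with 1 array left out. Probe sets called lower numbered 9, and 3 without a filter, 0 with that t-test, and 0 to 295 with 1 array left out. With the replicate number as a block, 131 were higher and 10 lower, and ref(2)P was still the 1 autophagy gene called. The sources do not say that equal numbers mark a shared batch. The actin 3'/5' ratio was 2.07 on both replicate 1 arrays and 1.61 on both replicate 2 arrays. Those of GAPDH and eIF-4A differed between arrays of equal number. With 2 pairs (correlation of deviations 0.151) the pairing cannot be settled. Of the autophagy genes, 1 was called higher under each alternative on the signals, the filter and the limma model, against 0 with the t-test (adjusted p of ref(2)P 0.461) and 0 to 3 with 1 array left out. The largest number came without Dop1R2 RNAi replicate 1. That fit, with 1 Dop1R2 RNAi array, also called the most probe sets over all. No apoptosis gene was called under any alternative. The autophagy median of 0.126 was 0.211 with the 60th percentile filter, 0.115 to 0.324 with 1 array left out, and 0.119 without ref(2)P, an alternative added after seeing the data. The apoptosis median of 0.199 was 0.374 without a filter, 0.297 with the 60th percentile filter and 0.071 to 0.319 with 1 array left out.

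Some of the genes named changed sign with 1 array left out. Their log2 fold changes then ranged from -0.384 to 0.434 for Dark, -0.016 to 0.808 for Dcp-1, -0.045 to 0.327 for Buffy, -0.294 to 0.156 for egr, -0.101 to 0.324 for Tor, -0.499 to 0.322 for Vps34, -0.251 to 0.196 for Atg1, -0.092 to 0.069 for Atg14, -0.115 to 0.017 for Atg4a, -0.146 to 0.398 for Atg5, -0.421 to 0.396 for Atg7 (0.008 with 32 added), -0.170 to 1.125 for p53 and -0.002 to 0.547 for spin. Over the 26 tested genes and the 12 named from the further lists by rule, each under the alternatives that gave a value, and the 8 untested genes without a filter, 499 values kept their direction and side of the threshold, 21 changed sign, 4 passed the threshold that they had missed (Atg13, Atg4b, Ced-6 and Rubicon, each without Dop1R2 RNAi replicate 1) and 3, all of ref(2)P, lost it. The fit without Dop1R2 RNAi replicate 1 had 1 Dop1R2 RNAi array and called the most probe sets over all. Passing in it is thus not particular to these genes. The cause of these shifts was not tested.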
